A study of Mus musculus with 22 samples.

Results

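Serpina3n, a gene for a secreted serine protease inhibitor, was followed across the hippocampus of 22 mice by single-cell RNA counting. It is 1 of 13685 genes in the deposited table. It was picked because its level was low in rTta animals and high in rTg4510 animals, so its values in any comparison with those genotypes are a description and carry no test. Only old WT against young WT and P301L against old WT were tested for it. Old WT animals may have served as the reference when the gene was picked, so these tests may not be independent of that choice.

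Drop-seq catches single cells in droplets with barcoded beads and counts the 3′ ends of their transcripts. The mice, all of mixed Fvb/B6 strain, fell into 6 groups. The old groups were rTg4510 (4 animals, 32 to 38 weeks), P301L (3 animals, 41 to 48 weeks) and rTta (3 animals, 33 weeks), beside old WT (5 animals, 32 to 40 weeks). The young groups were rTg4510 (3 animals, 4 to 5 weeks) and WT (4 animals, 5 to 6 weeks), although the series design gives the young animals a lower age range. The rTg4510 line expresses human tau with the P301L mutation from a tetracycline-responsive transgene, switched on by the transactivator tTA under the Camk2a promoter, which drives it in forebrain excitatory neurons. Judging by their names, P301L animals carry only the responder and rTta animals only the transactivator, although no label states this. The design describes WT animals as littermates that carry neither. P301L animals were older than every old WT animal, so age and genotype cannot be told apart in that comparison.

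Serpins trap their target protease by a change of shape that inactivates both partners. Mouse Serpina3n is a counterpart of human SERPINA3 (alpha-1-antichymotrypsin), an acute phase protein found with amyloid in Alzheimer's disease. In rodent brain it is known as a marker of reactive astrocytes and of an oligodendrocyte state seen in disease models. Cytokines of the interleukin 6 family, acting through the receptor chain gp130 and the transcription factor STAT3, and glucocorticoids are known inducers of SERPINA3 genes.

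Serpina3n lies at chr12:104406646-104414334 on the plus strand of mm10, at the end of a cluster of Serpina3 genes. Its 10 annotated paralogs, Serpina3a to Serpina3m, are not among the 13685 genes counted under these names, so they could not be analysed. The paralogs are similar in sequence, and whether reads shared with them were kept is not given in the sources used here, so the Serpina3n level is uncertain to that extent. The 188 bases that precede the annotated start are shown because both inducer pathways act on promoters of this family (RefSeq, GRCm38.p6, plus strand, chr12:104406458-104406645), with capitals marking the letters AGAACA.

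Serpina3n upstream: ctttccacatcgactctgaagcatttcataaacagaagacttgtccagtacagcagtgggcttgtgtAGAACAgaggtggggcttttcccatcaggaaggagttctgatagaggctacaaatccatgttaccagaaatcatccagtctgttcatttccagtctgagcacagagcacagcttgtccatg

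The hexamer AGAACA, part of the glucocorticoid receptor's binding site, was searched on both strands and had 1 match, at position 104406525. It occurs in 12.6% of 32851 RefSeq promoter windows of the same length. The STAT motif TTCNNNGAA, also searched on both strands, had 0 matches in this window and occurs in 5.49% of the windows. These are letter matches in 1 window and say nothing about binding.

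Animals had between 780831 and 6039656 counts in total, with 499 to 1599 cells of at least 300 counts. The median count per such cell lay between 638 and 2021 among the animals. The zeros in the table followed the animals: 270 genes lacked counts in every P301L and rTta library alone, and 801 lacked them in all of the other 16 alone. A comparison of P301L or rTta animals with old WT animals therefore also compares these 2 sets of libraries, and set and genotype cannot be told apart there. P301L replicate 3 and rTta replicate 3 shared 184 cell barcodes, whereas any other pair of animals shared at most 6. The 176 shared barcodes with at least 300 counts in both had a median correlation of 0.805 between the 2 copies, against 0.125 for different barcodes of the same animals. Which animal these cells belong to is not given, so values of both animals are given with and without them.

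Astrocytes (3577 cells) and oligodendrocytes (3816 cells) were named from markers. None of their 12 markers each was at 0 in any group. The summed astrocyte markers in astrocytes spanned 32339 to 46702 CPM (counts scaled to 1000000 counts of the class in 1 animal) in old rTg4510, 42366 to 50356 in P301L, 38841 to 47442 in rTta and 30609 to 41226 in old WT animals. Astrocytes held 29.7% of the 4983 Serpina3n counts, excitatory neurons 28.5% and oligodendrocytes 20.9%, so excitatory neurons held nearly as many of its counts as astrocytes.

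Astrocytes had the highest mean Serpina3n level of the named classes in old rTg4510 animals. In astrocytes, Serpina3n stood at 775, 292, 986 and 398 CPM in the 4 old rTg4510 animals. P301L astrocytes had 119.6, 691 and 137 CPM and rTta astrocytes 10.5, 19.7 and 39.9 CPM. Old WT astrocytes had 78.2, 72.8, 221, 168 and 152 CPM. All old rTg4510 animals lay above all old WT animals, all rTta animals lay below them, and among P301L animals only replicate 2 lay above them.

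The mean in astrocytes was 613 ± 324 CPM in old rTg4510 (SD, n = 4), 316 ± 325 in P301L (n = 3), 23.4 ± 15.05 in rTta (n = 3) and 138 ± 62.8 in old WT animals (n = 5). The fitted log2 difference was 2.25 ± 0.49 (SE) for old rTg4510 minus old WT and -2.46 ± 0.80 for rTta minus old WT. In the old rTg4510 contrast edgeR called 0.306% of 5556 tested genes, and in the rTta contrast 0.234%. Against rTta rather than WT, the log2 difference was 4.72 ± 0.75 for old rTg4510 (1.06% of genes called) and 3.83 ± 0.80 (0.198% of genes called) for P301L, which shares its set of libraries with rTta. The rTta values rest on 2, 3 and 8 counts in 228, 166 and 216 astrocytes, and the 8 counts of replicate 3 came from 1 cell. Without that animal the rTta minus old WT difference was -3.13.

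Without the shared barcodes, astrocytes of P301L replicate 3 had 205 CPM and those of rTta replicate 3 had 46.4 CPM. The log2 differences were then 2.24 for old rTg4510 minus old WT and -2.39 for rTta minus old WT. Neither direction depended on the shared cells.

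**Figure D1:**
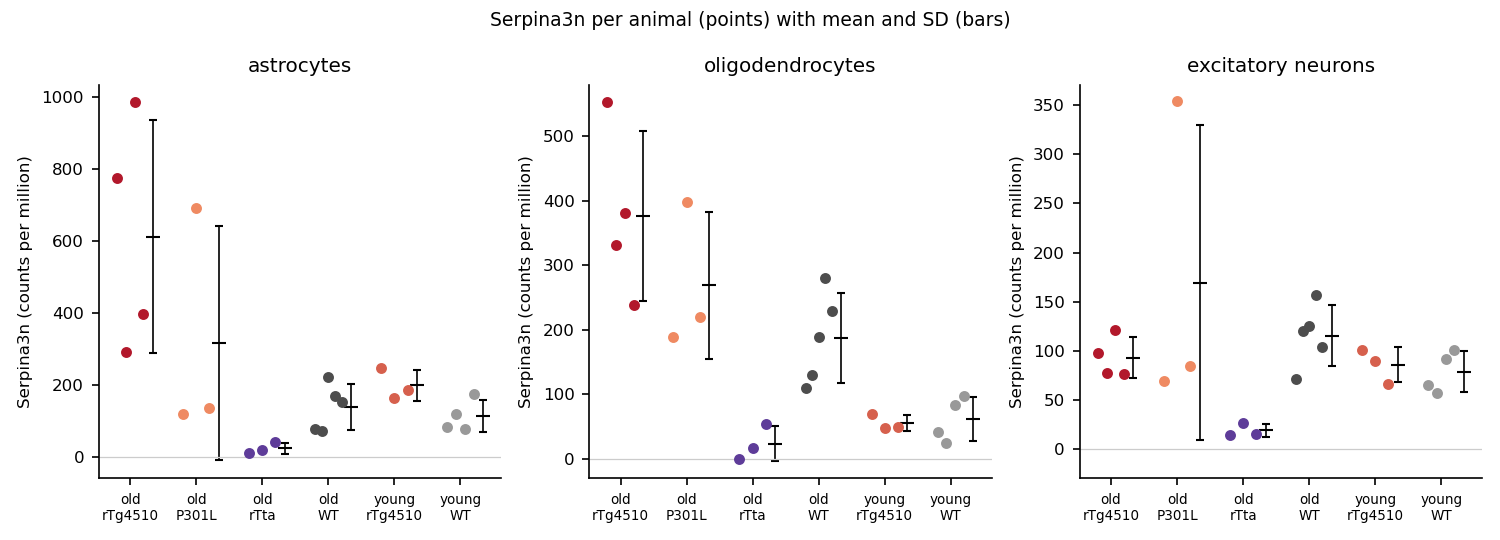
Serpina3n in CPM (y axis) for each animal (points) in the 6 groups (x axis), with the mean and SD of the group beside them, in panels for the 2 glial classes and excitatory neurons. The 3 rTta animals lie between 0 and 53.6 CPM in every panel, and P301L replicate 2 is the highest of its group in each.

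In oligodendrocytes Serpina3n was again low in rTta animals, while old rTg4510 and old WT animals overlapped. Serpina3n stood at 553, 332, 382 and 239 CPM in old rTg4510 oligodendrocytes. It stood at 189, 399 and 219 CPM in P301L and at 0, 17.4 and 53.6 CPM in rTta oligodendrocytes. Old WT oligodendrocytes had 109, 130.1, 189, 280.3 and 229.6 CPM. The lowest old rTg4510 animal lay below the highest old WT animal, so these groups overlapped, as did P301L and old WT, whereas all rTta animals lay below all old WT animals.

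In oligodendrocytes the mean was 376 ± 132 CPM in old rTg4510, 269 ± 113 in P301L, 23.6 ± 27.3 in rTta and 188 ± 70.3 in old WT animals (SD, n = 4, 3, 3 and 5). The log2 difference was 1.05 ± 0.35 for old rTg4510 minus old WT (0.179% of 5595 tested genes called) and -2.89 ± 0.57 for rTta minus old WT (1.43% called). The rTta values rest on 0, 4 and 11 counts. The 0 counts of replicate 1, among 192189 in 150 cells, allow up to 15.6 CPM at a floor of 3 counts. In replicate 3, 1 cell held 6 of the 11 counts, and without that animal the log2 difference was -4.20. Without the shared barcodes P301L replicate 3 had 271 CPM and rTta replicate 3 had 57.8 CPM, and the rTta minus old WT difference was -2.91.

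The groups could also be compared within ranges of animal numbers, which the labels give as sample titles. In astrocytes of the lower-numbered old animals the mean was 534 CPM in old rTg4510 animals (292 and 775) and 124 CPM in old WT animals (72.8 to 221). In the higher-numbered old animals it was 692 CPM in old rTg4510 (398 and 986) and 160.1 CPM in old WT animals (152 and 168). The old groups of WT and rTg4510 did not overlap within either range in astrocytes. In oligodendrocytes the same ranges gave 442 CPM in old rTg4510 against 143 CPM in old WT, and 310.3 CPM in old rTg4510 against 254.9 CPM in old WT, where the animals overlapped. P301L and rTta animals have number series of their own, so no such comparison exists for them.

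In young animals the genotypes overlapped in both glial classes. Whether the genotype differences of young and old animals differ was not tested. Astrocytes had 246, 163 and 186 CPM in young rTg4510 animals and 82.2, 119.9, 76.0 and 173 CPM in young WT animals, and the groups overlapped by 1 animal on each side. The log2 difference was 0.88 ± 0.59, in a contrast where edgeR called 0% of genes, and 0.58 without young rTg4510 replicate 1. Oligodendrocytes had 70.1, 47.9 and 50.1 CPM in young rTg4510 and 42.5, 24.6, 84.3 and 96.9 CPM in young WT animals, with all young rTg4510 values inside the range of young WT values. That log2 difference was -0.39 ± 0.46, again with 0% of genes called, and ranged from -0.61 without young WT replicate 2 to -0.13 without young WT replicate 4. In these 2 contrasts 339 astrocyte and 319 oligodendrocyte genes had an unadjusted p under 0.05, and DESeq2 called 0 in each. Old rTg4510 minus young rTg4510 gave 1.65 ± 0.56 in astrocytes (0% of genes called) and 2.74 ± 0.44 in oligodendrocytes (2.32% called).

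Excitatory neurons, the cells in which the transactivator is expressed, held Serpina3n at similar levels in old rTg4510 and old WT animals when taken as a whole class, and at low levels in rTta animals. They had 97.3, 77.5, 121 and 75.8 CPM in old rTg4510, 69.3, 354 and 84.9 CPM in P301L and 14.5, 26.8 and 15.5 CPM in rTta animals. Old WT excitatory neurons had 71.0, 120.4, 125, 156 and 104 CPM. The old rTg4510 values lay within the old WT range, P301L replicate 2 lay above it, and the rTta values lay below it. The log2 difference was -0.32 ± 0.35 for old rTg4510 minus old WT (0.273% of 9535 genes called) and -2.59 ± 0.48 for rTta minus old WT (0.388% called). Pooled over animals, clusters of this class had 46.3, 109, 183 and 104 CPM in old rTg4510. The same clusters had 38.5, 149, 93.8 and 103 CPM in old WT. The cluster with the lowest levels held 335 of 1376 old rTg4510 cells and 127 of 1597 old WT cells. The part of this cluster mix in the class levels was not tested.

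Oligodendrocyte precursors, the dividing cells that give rise to oligodendrocytes, overlapped between rTta and old WT animals. They had 166, 225 and 63.6 CPM in the 3 old rTg4510 animals with at least 20 such cells and 64.5, 313 and 41.7 CPM in P301L animals. They had 65.8, 28.2 and 151 CPM in rTta animals, from 7, 2 and 9 counts, and 58.0, 28.2, 25.5, 135 and 127 CPM in old WT animals. The rTta minus old WT difference was -0.02 ± 0.59, and whether it differed from that of the other classes was not tested. Without the shared barcodes rTta replicate 3 had 161.6 CPM in these cells. Precursors gave 18.6% of the Serpina3n counts of rTta animals and 3.3% of those of old WT animals.

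**Figure D2:**
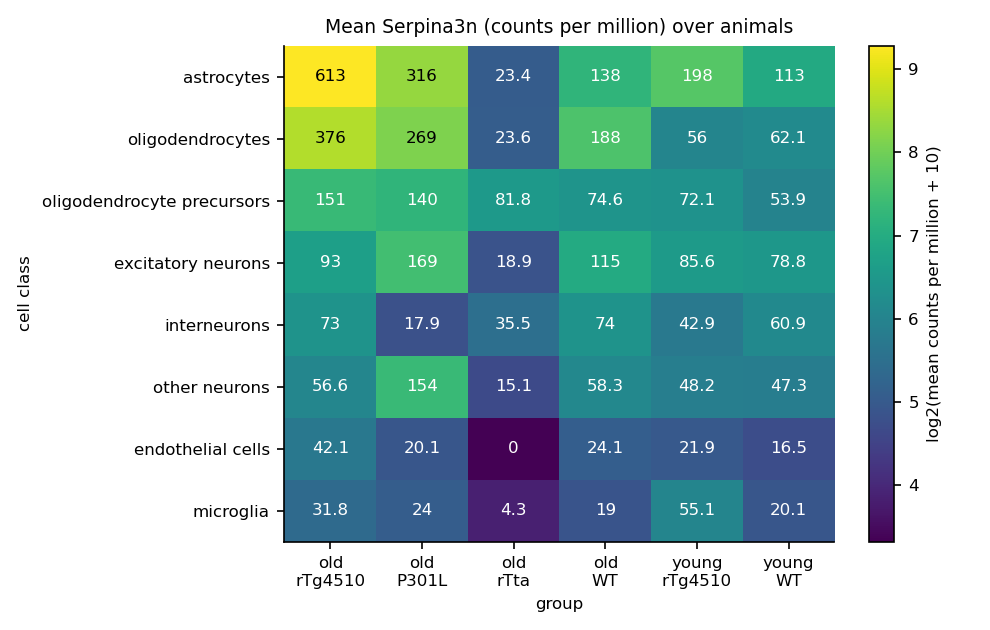
Mean Serpina3n in CPM over animals with at least 20 cells (numbers) for each cell class (y axis) and group (x axis), coloured by log2(mean + 10). Astrocytes lead in old rTg4510 at 613 CPM and oligodendrocytes in old WT at 188 CPM, and the P301L interneuron value comes from 1 animal.

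In old WT animals the order of the classes was oligodendrocytes (188 ± 70.3 CPM), astrocytes (138 ± 62.8), excitatory neurons (115 ± 31.2), precursors (74.6 ± 52.9), interneurons (74.0 ± 24.5, n = 4), other neurons (58.3 ± 57.0, n = 3), mural cells (32.0 ± 27.7, n = 3), endothelial cells (24.1 ± 6.28) and microglia (19.0 ± 18.8). Each class differed from the next by less than the larger SD of the pair. In old rTg4510 animals astrocytes led, followed by oligodendrocytes and precursors (151 ± 81.5 CPM, n = 3), and endothelial cells (42.1 ± 27.7) and microglia (31.8 ± 12.8) were lowest among classes with cells in all 4 animals. Within all counts of the gene, astrocytes gave 44.5% in old rTg4510, 27.2% in P301L, 13.4% in rTta and 15.3% in old WT animals. These shares also move with how many cells of a class each library held.

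Both astrocyte clusters carried the gene. The cluster led by Gja1 and Slc1a3 had 606 CPM in old rTg4510, 420.0 in P301L, 27.0 in rTta and 145 in old WT animals, pooled over animals. The cluster led by Gfap, with a median of 538.5 counts per cell against 1396 in the other cluster, had 571 CPM in old rTg4510, 299 in P301L, 14.6 in rTta and 82.6 in old WT animals. Single P301L animals ranged from 96.8 to 719 CPM in the Gja1 cluster and from 63.0 to 538 CPM in the Gfap cluster. Old WT animals with at least 20 cells ranged from 81.6 to 225 CPM and from 26.9 to 136 CPM, so both clusters overlapped between P301L and old WT animals. Old rTg4510 animals ranged from 300 to 1038 CPM in the Gja1 cluster, above all of these old WT animals. In the Gfap cluster they ranged from 124 to 777 CPM and overlapped with old WT animals. Serpina3n was among the genes used for clustering, and clusters made without it and the listed genes gave log2 differences in the same direction.

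The astrocyte counts of old rTg4510 animals were concentrated in some cells. Of 815 old rTg4510 astrocytes 313 had a Serpina3n count, and 49 cells with at least 5 counts, found in all 4 animals, held 459 of the 917 counts. The fullest cell had 64 counts. In P301L animals 5 of 432 astrocytes had at least 5 counts, all from 1 animal, and in rTta animals 1 of 610 did. In old WT animals 86 of 632 astrocytes had a count and 0 had at least 5, which allows a share of up to 0.475% by counting error in the pooled cells, without the spread between animals. Among oligodendrocytes 16 of 597 had at least 5 counts in old rTg4510, 4 of 535 in P301L, 1 of 465 in rTta and 2 of 737 in old WT animals. The threshold of 5 was set after the values were seen, and median depth per astrocyte differed between groups (1567 counts in old rTg4510, 687 in P301L, 622.5 in rTta and 1221 in old WT animals, as medians over animals).

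**Figure D3:**
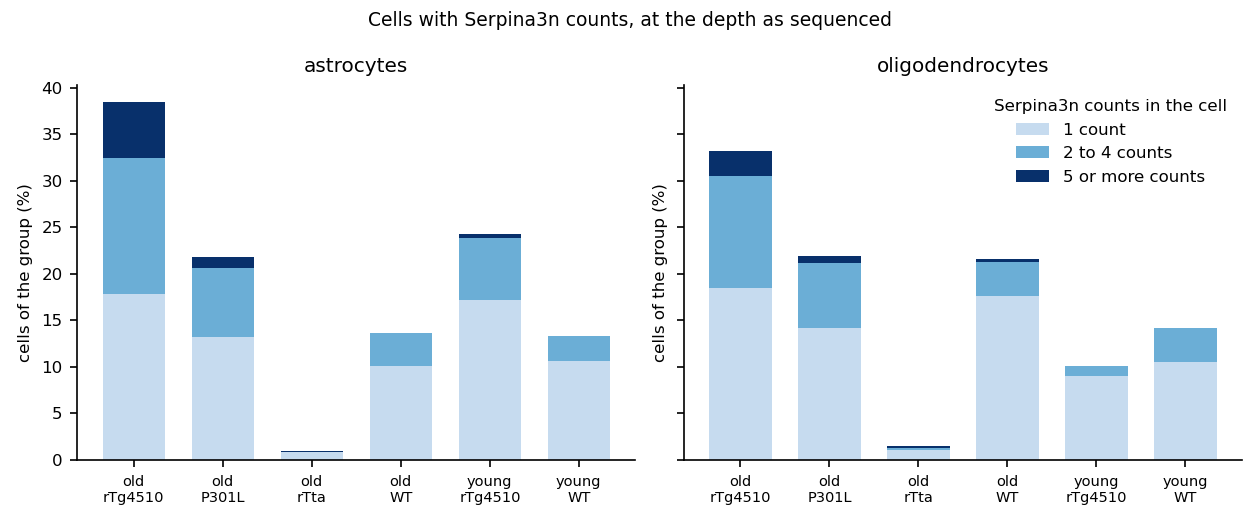
Percent of cells of each group (y axis) with 1, 2 to 4, or 5 or more Serpina3n counts (stacked bars), in astrocytes and oligodendrocytes, pooled over the animals of a group (x axis) and not adjusted for depth. The darkest part, cells with 5 or more counts, makes up 6.01% of old rTg4510 astrocytes and 0% of old WT astrocytes.

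With every cell thinned to 300 counts, 13.3% of astrocytes had a Serpina3n count in old rTg4510, 7.84% in P301L, 0.28% in rTta and 3.86% in old WT animals, as means over animals. The unthinned shares were 40.1% in old rTg4510, 19.5% in P301L, 1.05% in rTta and 14.9% in old WT animals. For oligodendrocytes the thinned shares were 9.10% in old rTg4510, 6.21% in P301L, 0.505% in rTta and 4.76% in old WT animals. Neurons had been planned as the class that should lack the gene, but excitatory neurons carried it. Their thinned shares were 3.39% in old rTg4510, 4.15% in P301L, 0.362% in rTta and 2.72% in old WT animals, so other classes were used. Endothelial cells, chosen after the values were seen as a class low in the gene, had 1.81%, 0.618% and 0.741% in old rTg4510, P301L and old WT animals, and 0 counts in 381 rTta cells, which allows an unthinned share of up to 0.787% by counting error in the pooled cells, without the spread between animals. Microglia had 0.972%, 0.68%, 0.232% and 0.556% in old rTg4510, P301L, rTta and old WT animals. Microglia were likewise chosen after the values were seen. In rTta animals the levels were 10.5, 19.7 and 39.9 CPM in astrocytes (13 counts), 0, 12.9 and 0 CPM in microglia (2 counts) and 0 CPM in endothelial cells of each animal. With so few counts, how much of the rTta astrocyte level is free RNA was not tested.

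Markers of other cell types were followed in the same sums. The 12 microglia markers summed to 618 to 2873 CPM in old rTg4510 astrocytes, 288 to 1059 in P301L, 217 to 843 in rTta and 772 to 1573 in old WT astrocytes, with none at 0. The 12 oligodendrocyte markers summed to 1777 to 2702 CPM in old rTg4510 astrocytes and 1953 to 6196 CPM in old WT astrocytes. In oligodendrocytes, astrocyte markers summed to 1351 to 3062 CPM in old rTg4510, 680 to 1089 in P301L, 1112 to 1577 in rTta and 877 to 2608 in old WT animals. Each of these ranges overlapped that of old WT animals, whereas astrocyte markers in oligodendrocytes lay higher in old rTg4510 than in P301L animals. Their part in the Serpina3n levels was not tested. Restricting the sums to cells with most marker counts of their own class kept the direction of each comparison.

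Old and young WT animals were compared with a test, since the gene was not picked on that comparison. Oligodendrocyte Serpina3n lay higher in all 5 old WT animals (109 to 280.3 CPM) than in all 4 young WT animals (24.6 to 96.9 CPM). The log2 difference of 1.30 ± 0.39 (95% interval 0.53 to 2.08) did not pass edgeR's quasi-likelihood test (adjusted p = 0.0712), in a contrast where 3.24% of genes passed. It passed with only these 2 groups in the fit (adjusted p = 0.0235), with a term for animal-number range (0.0119) and with DESeq2 (0.0102), and leaving out animals gave adjusted p between 0.0362 and 0.209. At 300 counts per cell, 4.76 ± 1.76% of old WT oligodendrocytes and 1.76 ± 1.11% of young WT oligodendrocytes had a count (SD, n = 5 and 4; two-sided exact permutation p = 0.0159, the smallest that 126 splits allow; 0.0635 adjusted over 4 tests). This thinned share was higher in 5 of 5 old animals than in any young animal. The unthinned shares overlapped, at 22.7 ± 7.22% in old WT and 11.3 ± 5.77% in young WT oligodendrocytes (two-sided exact permutation p = 0.0476, not adjusted). Microglia markers in these oligodendrocytes summed to 117 to 385 CPM in old WT and 42.5 to 167 CPM in young WT animals, and the cells' own markers to 72288 to 130662 CPM in old WT and 142751 to 159118 CPM in young WT animals. The part of these shifts in the Serpina3n difference was not tested.

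In astrocytes the old and young WT animals overlapped. Old WT astrocytes averaged 138 ± 62.8 CPM and young WT astrocytes 113 ± 44.8 CPM (SD, n = 5 and 4), with overlapping animals. The log2 difference was 0.27 ± 0.55 (95% interval -0.80 to 1.35, edgeR adjusted p = 0.932), in a contrast where 0% of genes passed, 426 had an unadjusted p under 0.05 and DESeq2 called 0. Leaving out single animals moved it between 0.09 (without old WT replicate 3) and 0.51 (without young WT replicate 4). The thinned share was 3.86 ± 1.77% in old WT and 3.05 ± 1.43% in young WT astrocytes (two-sided exact permutation p = 0.413). In excitatory neurons old WT minus young WT was 0.55 ± 0.34 (adjusted p = 0.893; 0.021% of genes passed). Whether the age differences of the classes differ from each other was not tested.

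P301L against old WT did not pass the test in astrocytes, oligodendrocytes or excitatory neurons. The log2 difference in astrocytes was 1.37 ± 0.55 (95% interval 0.30 to 2.44, edgeR adjusted p = 0.35; 0.018% of genes passed) and rested on P301L replicate 2. Without that animal it was -0.08 (adjusted p = 0.982). In oligodendrocytes it was 0.56 ± 0.39 (95% interval -0.21 to 1.33, adjusted p = 0.627; 0.697% of genes passed), and 0.15 without P301L replicate 2 (adjusted p = 0.942). In excitatory neurons it was 0.63 ± 0.38 (adjusted p = 0.673), where edgeR called 0% of genes, 860 had an unadjusted p under 0.05 and DESeq2 was not run. The thinned share in astrocytes was 7.84 ± 8.01% in P301L and 3.86 ± 1.77% in old WT animals (two-sided exact permutation p = 0.5). In oligodendrocytes it was 6.21 ± 2.35% in P301L and 4.76 ± 1.76% in old WT animals (two-sided exact permutation p = 0.321), where 56 splits allow no p below 0.0357. P301L replicate 2 was also the highest of its group in astrocyte Gfap, with 633, 4415 and 548 CPM in the 3 P301L animals, and in astrocyte C4b, with 49.2, 379.6 and 74.7 CPM.

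The upstream pathway was described by lists of ligands, receptors, kinases with their factors, and target genes, in old rTg4510 minus old WT. Ligands were hardly measured in glia: of 11 inducing ligand genes 6 were measured and 1 was tested in astrocytes (C1qa, a complement gene, 1.26 ± 0.66, not passing). Over all cells Il1b, an inflammatory cytokine gene, averaged 172 CPM in old rTg4510, 26.7 in rTta and 18.9 CPM in old WT animals. Osm, an interleukin 6 family ligand gene, averaged 18.8 CPM in old rTg4510, 3.19 in rTta and 3.82 CPM in old WT animals. The mean of Il1b was lower in old WT than in rTta animals, and so were those of Tnf, Il1a and C1qa. For Il1b the rTta mean lay within the SD of old WT animals (18.9 ± 18.5 CPM, against 26.7 ± 5.64 in rTta). P301L animals, which share the set of libraries with rTta, averaged 47.5 CPM for Il1b, 15.4 for Tnf, 46.7 for Il1a and 805 for C1qa. Set and genotype cannot be told apart between rTta and old WT animals. Tnf averaged 52.9 CPM in old rTg4510, 58.6 in rTta and 28.0 CPM in old WT animals. Il1a averaged 61.5 CPM in old rTg4510, 57.0 in rTta and 30.8 CPM in old WT animals, and C1qa 859.8, 519.9 and 188 CPM in old rTg4510, rTta and old WT animals. Microglia made up 904 of 5588 cells in old rTg4510, 461 of 4160 in rTta and 395 of 4723 in old WT animals, and their part in these all-cell levels was not tested. Of 6 receptor genes tested in astrocytes 1 rose, Tnfrsf1a, a tumour necrosis factor receptor gene, at 1.43 ± 0.34 (edgeR adjusted p = 0.0457), with the list's median at 0.33 against -0.01 over all genes, of which 0.27% rose. Osmr, the oncostatin M receptor gene, averaged 69.5 CPM in old rTg4510 and 14.2 CPM in old WT astrocytes (2.30 ± 0.66, adjusted p = 0.166). Of 3 receptor genes tested in oligodendrocytes 0 passed in edgeR, where 0.179% of all tested genes did, 0 had an unadjusted p under 0.05 and DESeq2 called 0. Osmr was listed at 0 in all P301L, rTta and old WT oligodendrocytes.

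Of the kinase and transcription factor genes 4 were tested in astrocytes and 7 in oligodendrocytes. In oligodendrocytes 1 rose, Cebpd, an acute phase transcription factor gene, at 2.51 ± 0.56 (adjusted p = 0.0395), where 0.143% of all tested genes rose. In astrocytes 0 passed in edgeR, where 0.306% of all tested genes did, 2 had an unadjusted p under 0.05 and DESeq2 called 0. Cebpd there was at 1.82 ± 0.43 (edgeR adjusted p = 0.0513) and Stat3 at 0.78 ± 0.32 (adjusted p = 0.434). Stat3 averaged 105 CPM in old rTg4510 and 52.7 CPM in old WT oligodendrocytes (0.91 ± 0.31, adjusted p = 0.4).

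Genes known as STAT3 or acute phase targets had positive differences in both glial classes. In astrocytes 7 of 18 were tested, 1 rose (0.27% of all tested genes rose), and the median was 0.88. That gene was Gfap, the intermediate filament gene of reactive astrocytes, with 3148, 1879, 3739 and 1376 CPM in old rTg4510 and 692, 246, 364, 457 and 245 CPM in old WT astrocytes (2.71 ± 0.54, adjusted p = 0.0435). DESeq2 called 3 of the 7. In oligodendrocytes 6 were tested, all 6 had positive differences with a median of 0.97, and 1 rose (0.143% of all tested genes rose), C4b, a complement gene, at 4.13 ± 0.52 (adjusted p = 0.000765). C4b averaged 535 ± 318 CPM in old rTg4510 and 27.6 ± 30.7 CPM in old WT oligodendrocytes. The astrocyte gene Gfap, also on this list, averaged 173 ± 95.4 CPM in old rTg4510 and 27.4 ± 24.4 CPM in old WT oligodendrocytes. How much of these oligodendrocyte levels is RNA from astrocytes was not tested.

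Glucocorticoid response genes did not pass in either glial class. Over all tested genes edgeR called 0.306% in astrocytes and 0.179% in oligodendrocytes in this contrast, so 0 called is near the background. In astrocytes 0 of 5 tested passed in edgeR, 3 had an unadjusted p under 0.05, DESeq2 called 1 (Tsc22d3), and the median was -0.37. Tsc22d3, a glucocorticoid-induced leucine zipper gene, was at -1.40 ± 0.37 (adjusted p = 0.107) and Sgk1, a serum and glucocorticoid kinase gene, at -1.29 ± 0.56 (adjusted p = 0.495). In oligodendrocytes 0 of 8 tested passed, 1 had an unadjusted p under 0.05, DESeq2 called 0, and the median was 0.13.

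Of 11 tested reactive astrocyte genes in astrocytes all had positive differences with a median of 1.93, and 2 rose: Gfap and the MHC class I gene H2-D1 (1.45 ± 0.29, adjusted p = 0.0107), where 0.27% of all tested genes rose. DESeq2 called 5. S1pr3, a sphingosine-1-phosphate receptor gene, was at 4.03 ± 0.90 and did not pass (adjusted p = 0.0561). In oligodendrocytes 7 of these genes were tested and 1 rose, C4b, with a median of 0.48, where 0.143% of all tested genes rose. Of 15 tested genes of a disease-associated oligodendrocyte list, 1 rose in oligodendrocytes (C4b; median 0.52), and of 14 tested in astrocytes 2 rose (H2-D1 and H2-K1 at 1.47 ± 0.25, adjusted p = 0.00256).

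**Figure D4:**
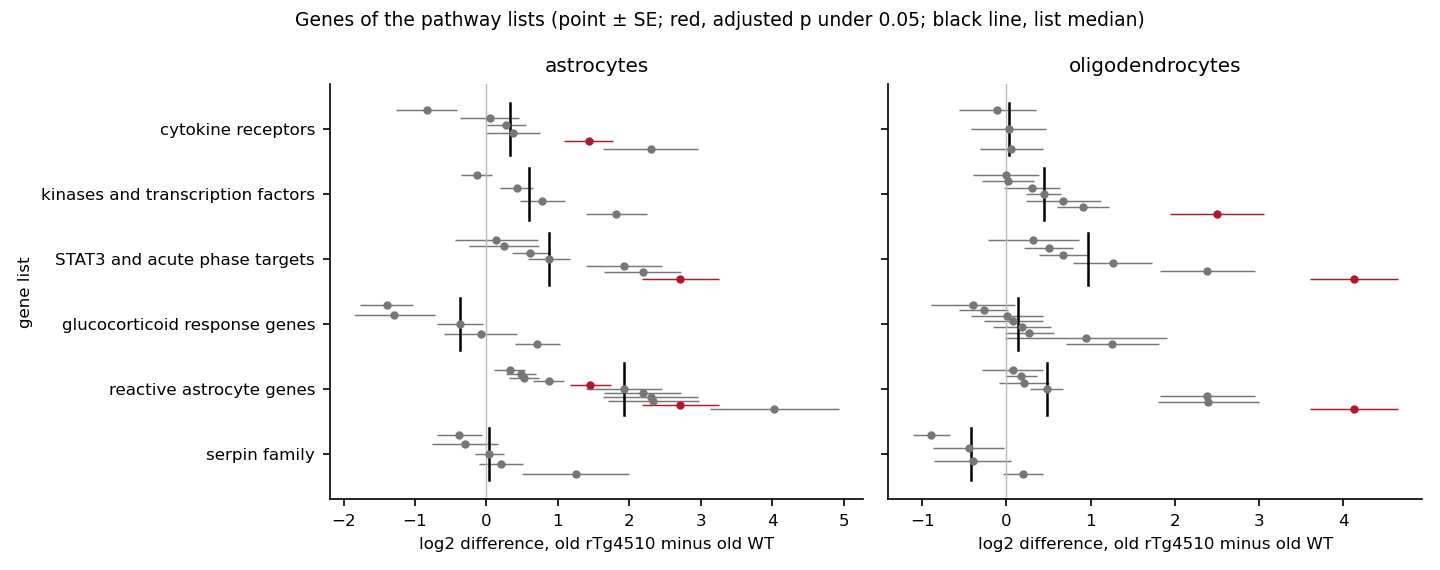
Log2 difference of old rTg4510 minus old WT (x axis, point ± SE) for every tested gene of 6 gene lists (y axis), in astrocytes and oligodendrocytes, with red for an adjusted p under 0.05 and a black line at the list's median. The medians run from -0.37 (glucocorticoid response genes) to 1.93 (reactive astrocyte genes) in astrocytes.

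Few other serpins were measured in glia. Of 27 listed family genes 9 were measured, 5 were tested in astrocytes and 4 in oligodendrocytes. In old rTg4510 minus old WT 0 passed in either class, 0 in astrocytes and 1 in oligodendrocytes had an unadjusted p under 0.05, and DESeq2 called 0 in astrocytes and Serpinb1a alone in oligodendrocytes. Over all tested genes edgeR called 0.306% in astrocytes and 0.179% in oligodendrocytes, so 0 called serpins is near the background. The medians were 0.04 in astrocytes and -0.43 in oligodendrocytes. Serpine2, a thrombin and plasminogen activator inhibitor gene, averaged 439 CPM in old rTg4510, 381 in P301L, 428 in rTta and 437 CPM in old WT animals over all cells. The protease genes listed as Serpina3n targets (Gzmb, Elane, Ctsg and Mmp9) were not analysed here.

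In rTta minus old WT astrocytes 0 of 7 STAT3 targets and 0 of 11 reactive genes passed, 0 and 1 had an unadjusted p under 0.05, DESeq2 called 0 of each, and both medians were 0.14. Over all genes 0.234% passed there. Gfap ranged from 425 to 519.6 CPM in rTta and from 245 to 692 CPM in old WT astrocytes. In oligodendrocytes 2 of 15 tested disease-associated genes passed, where 1.43% of all genes did. Apoe, the apolipoprotein E gene, fell by 0.77 (SE 0.20, adjusted p = 0.039) and Il33, an alarmin cytokine gene, rose by 1.35 ± 0.31 (adjusted p = 0.0159). Apoe averaged 2761 CPM in rTta, 3244 in P301L and 4806 in old WT oligodendrocytes. Il33 averaged 1585 CPM in rTta, 1013 in P301L and 628 in old WT oligodendrocytes. P301L shares its set of libraries with rTta, and the part of that set in these differences was not tested. In old WT minus young WT oligodendrocytes, Apoe rose by 1.40 ± 0.19 (adjusted p = 4.14e-06) and Il33 by 2.69 ± 0.33 (adjusted p = 7.8e-06), where 3.24% of all genes passed.

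The genes whose level followed Serpina3n most closely over the 22 animals were ranked by Pearson's r of log2(CPM + 10). In astrocytes they were Cpe (r = 0.853), S1pr3 (0.798), Ctsb (0.797), Ifitm3 (0.789), Sparc (0.787), Dhrs1 (0.784), S100a6 (0.774) and Arpc1b (0.771), among 5555 genes with a median r of -0.03 and a 99th percentile of 0.626. In oligodendrocytes they were Rnase4 (0.844), Tmem150c (0.842), Itih5 (0.807), Hopx (0.796), Cyp2d22 (0.791), G6pdx (0.779), Junb (0.756) and Cav2 (0.745), among 5594 genes with a 99th percentile of 0.589. The points share groups, libraries and depth, so these values are a description. After group means were removed, the 8 astrocyte genes had r between 0.498 and 0.77, and the oligodendrocyte genes ranged from -0.13 (Cyp2d22) to 0.754 (G6pdx). The genes were picked by r over the same animals, which includes this part within groups, so these values are no separate support. The level of this r over all genes is not given. How far it rests on single animals, such as P301L replicate 2, was not tested.

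S1pr3 averaged 95.9 CPM in old rTg4510, 74.6 in P301L, 3.41 in rTta and 4.60 CPM in old WT astrocytes. Cpe, the carboxypeptidase E gene, averaged 8763 CPM in old rTg4510, 8979.8 in P301L, 5029.7 in rTta and 6047 CPM in old WT astrocytes. Rnase4, a ribonuclease gene, averaged 258 CPM in old rTg4510, 180.1 in P301L, 14.0 in rTta and 140.0 CPM in old WT oligodendrocytes, beside 13.2 CPM in young rTg4510 and 7.16 CPM in young WT oligodendrocytes. In these levels Rnase4 was low in rTta and in young animals alike, and S1pr3 was as low in old WT as in rTta animals.

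The genome around Serpina3n was examined because the tTA transgene of this line is known to have inserted on the same chromosome, in a region that holds Wdr60, Esyt2 and Ptprn2. The starts of these genes lie 11.8 to 12.1 Mb distal to Serpina3n. Within 2 Mb of Serpina3n 113 genes are annotated and 26 were measured. In rTta minus old WT edgeR called 0 of the neighbours tested in each class (11 for astrocytes, 13 for oligodendrocytes, 22 for excitatory neurons), and 1, 4 and 1 of them had an unadjusted p under 0.05; DESeq2 was not run for these genes as a list. Over all tested genes 0.234%, 1.43% and 0.388% were called in these classes, so 0 called neighbours is near the background. The median neighbour difference was -0.19 for astrocytes, -0.04 for oligodendrocytes and 0.03 for excitatory neurons, with extremes of -1.85 and 0.71 in oligodendrocytes.

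The nearest measured genes on the proximal side were Otub2, Ddx24, Ifi27l1, Ifi27l2a and Ppp4r4, from 1.00 to 0.79 Mb away. On the distal side they were Dicer1, Clmn, Snhg10, Glrx5 and 2810011L19Rik, from 0.27 to 0.92 Mb away. In excitatory neurons of rTta minus old WT, Dicer1, the microRNA processing enzyme gene, was at 0.14 ± 0.29 and Glrx5, a mitochondrial glutaredoxin gene, at -0.62 ± 0.23 (adjusted p = 0.37). Serpina3n stood at -2.59 ± 0.48 in the same fit.

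**Figure D5:**
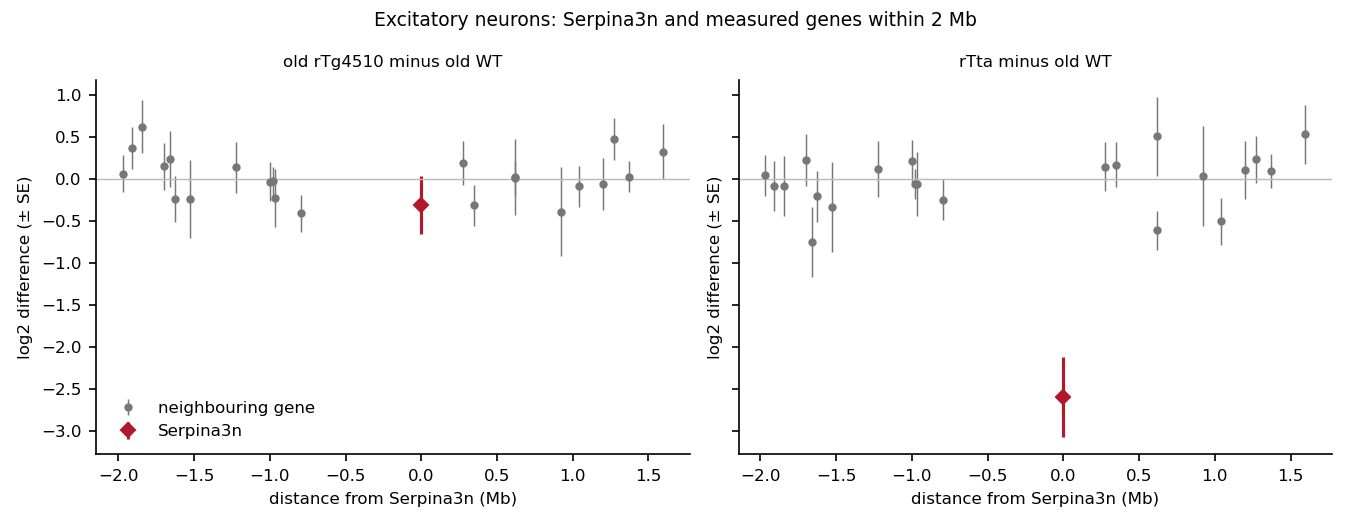
Log2 difference (y axis, point ± SE) of Serpina3n (red) and the 22 measured genes within 2 Mb (grey) against distance in Mb (x axis), in excitatory neurons, for old rTg4510 minus old WT and for rTta minus old WT. The grey points stay between -0.75 and 0.53 in the rTta comparison, where Serpina3n is at -2.59.

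Wdr60, a dynein chain gene at the insertion site, fell in rTta and in young rTg4510 animals, and rTta and rTg4510 both carry the transactivator by their names. In excitatory neurons it had 56.5, 53.6 and 34.8 CPM in rTta, against 193, 212, 114, 106 and 188 CPM in old WT animals. It fell by 1.76 on the log2 scale (SE 0.33, edgeR adjusted p = 0.007) in rTta minus old WT. In young rTg4510 minus young WT it fell by 1.54 (SE 0.32, adjusted p = 0.0415; 0.189% of genes called). Old rTg4510 animals had 103, 106, 50.5 and 69.3 CPM (-1.01 ± 0.28 against old WT, adjusted p = 0.144). P301L animals had 212, 144 and 78.4 CPM (-0.11 ± 0.31). Serpina3n was low in rTta excitatory neurons, while its old rTg4510 values lay within the old WT range. Ptprn2, a receptor-type phosphatase gene at the same site, was at -0.26 ± 0.20 in rTta minus old WT excitatory neurons and did not pass (adjusted p = 0.783). It fell by 0.95 (SE 0.21, adjusted p = 0.0426) in young rTg4510 minus young WT. Whether the insertion bears on the Serpina3n level was not tested.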

How the data were processed

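Counts were taken as deposited, 1 whole number for each gene and cell barcode, for 13685 genes and 30500 barcodes of 22 mice. Per the submitters' processing notes, bcl2fastq 2.18.0.12 and STAR, given as version 2.2, were used with build mm10. Use of molecular identifiers in counting, the annotation and the filters are not given in the sources used here. If reads were counted, counting intervals are too narrow. Each replicate is 1 animal.

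Barcodes with at least 300 counts (27198) were clustered with scanpy 1.11.5 (2000 variable genes, 40 principal components, 15 neighbours, Leiden resolution 1). A cluster was named from at least 3 markers that stood 2-fold above the other clusters after 20 CPM was added. It stayed unnamed where at least 3 and a share of 0.5 of another class's markers did too. That second condition was amended after clusters and Serpina3n levels had been seen, which left the astrocyte and oligodendrocyte clusters as they were. Unnamed cells made up 4.82% of the total. No doublet caller was run. The 1851 cells that held at least as many marker counts of another class as of their own were kept, and left out in an alternative.

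Counts were summed per animal and class (at least 20 cells) and fitted over all 6 groups with edgeR 4.0.16's quasi-likelihood test (limma 3.58.1, R 4.3.3, TMM scaling, low counts filtered, Benjamini-Hochberg adjustment over all tested genes, threshold 0.05). The fit was tested on simulated data. DESeq2 1.42.0, other filters and left-out animals were alternatives. CPM intervals are exact Poisson intervals and cover counting error alone. The gene, the lists and the tests were chosen with earlier results of these data known. Named genes were Serpina3n, all serpins and proteases by count, up to 4 called and 2 abundant genes per list, 8 genes by likeness per class, 5 neighbours per side, Wdr60 and Ptprn2.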

Additional observations from a re-analysis of the deposited data

Results flagged for a closer look

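Over all kept cells, old rTg4510 replicate 1 had 251.6 CPM of Serpina3n, far from the next animal of its group at 132.6 CPM. Young WT replicate 4 had 85.6 CPM over all kept cells, far from the next animal at 54.2 CPM. Dixon's test at the 95% level marked these 2 of 12 group and class combinations with 4 to 10 animals, and chance marks about 1 in 20. Neither animal was marked in astrocytes, oligodendrocytes or excitatory neurons alone. Sums over all cells also move with the share of each class in a library. In old rTg4510 replicate 3, choroid plexus cells held 3520792 of 5997010 counts but 99 of 788 Serpina3n counts. In young WT replicate 3 they held 1892283 of 5710043 counts but 8 of 278 Serpina3n counts. The part of these class shares in the marked values was not tested.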

How the results depend on the processing

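Of 162 alternative values 68 came with a test, and 63 of these kept the direction and side of the threshold. For the thinned shares that side was judged on the exact permutation p before adjustment. The other 94 had no test; all 94 kept their direction and 92 moved by less than 1 SD between animals. Serpina3n in oligodendrocytes, old WT minus young WT, passed the threshold with only the groups compared (1.34, adjusted p = 0.0235), with a term for animal numbers (1.43, 0.0119) and with DESeq2 (1.41, 0.0102). Leaving out animals moved it between 1.11 and 1.57, and it passed without old WT replicate 1 (1.51). P301L minus old WT in astrocytes ranged from -0.08 to 1.77 when animals were left out, and reversed to -0.077 without P301L replicate 2. Without rTta replicate 3, rTta minus old WT was -3.13 in astrocytes (-3.13 to -2.10 over left-out animals) and -4.20 in oligodendrocytes (-4.20 to -2.37); the cause was not tested. Old rTg4510 minus old WT stayed between 1.90 and 2.47 in astrocytes and between 0.80 and 1.26 in oligodendrocytes. No paired analysis was possible because replicate numbers follow accession order and pair no animals. Astrocyte calls in rTta animals rest on 13 counts, which limits their precision. DESeq2 called 11 genes in astrocytes of P301L minus old WT, against 1 in edgeR, 30 against 17 in old rTg4510 minus old WT, 20 against 10 in oligodendrocytes of that contrast and 69 against 39 in oligodendrocytes of P301L minus old WT.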
